A study of Mus musculus with 6 samples.

Results

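The metabotropic GABA-B receptor and its KCTD auxiliary subunits were examined in cultured mouse retinal ganglion cells (RGCs) through 6 genes, Gabbr1, Gabbr2, Kctd8, Kctd12, Kctd12b and Kctd16, of 43346 Ensembl genes listed. The set was chosen by a measured value, namely that Kctd12b, close to 0 counts in the control libraries, was high with both viruses. The other 5 genes were added as its receptor and its family. All 6 passed the filter on low counts that kept 15747 genes for testing, and Kctd12b passed it only through the libraries in which it was high. Its levels against control are therefore given as a description without a test, and tests are given for the other 5 genes and for Sox11K91A against Sox11.

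Mouse RGCs were purified by immunopanning on CD90.1 (Thy1) and grown with forskolin, BDNF and CNTF, which all groups shared. The sources disagree on age: the growth protocol names postnatal pups. The study's methods and discussion name embryonic RGCs for the RNA-seq cultures. Each group received 1 adeno-associated virus (AAV) from 4 h after plating, at about 100000 vector genomes per cell: a control virus with EGFP alone, a virus with Sox11-IRES-EGFP, or a virus with Sox11K91A-IRES-EGFP, in which lysine 91, a site of SUMO attachment in this transcription factor, is alanine. All 6 libraries are thus from transduced cells, and in what follows the viruses are the 2 that carry Sox11 or Sox11K91A. RNA was taken 72 h after plating from wells of 250000 cells, and each group had 2 libraries. The study's methods describe 3 RNA samples sequenced in duplicate and do not say whether the duplicates came from separate cultures, so the p-values measure the spread between libraries, which may be technical.

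GABA-B receptors are G protein-coupled receptors for GABA that work as a pair of different subunits. GABBR1 binds the transmitter, and GABBR2 brings the pair to the cell surface and couples it to inhibitory G proteins, which open Kir3 potassium channels, close presynaptic calcium channels and lower cyclic AMP. The cytosolic proteins KCTD8, KCTD12, KCTD12B and KCTD16 bind the tail of GABBR2 together with G protein βγ and set the speed and desensitization of the response. In the retina GABA is released mainly by amacrine and horizontal cells, and RGCs receive it.

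Gabbr1 (ENSMUSG00000024462) lies at chr17:37045966-37075067 on the plus strand of GRCm38, and the other genes named here by position lie on the minus strand. Gabbr2 (ENSMUSG00000039809) spans chr4:46662305-46991873, Kctd8 (ENSMUSG00000037653) chr5:69109285-69341679, Kctd12 (ENSMUSG00000098557) chr14:102976581-102982637 and Kctd12b (ENSMUSG00000041633) chrX:153685154-153696391. The position of Kctd16 (ENSMUSG00000051401) is not given here. No annotated exon of another gene overlapped those of Kctd12b, Gabbr1 or Gabbr2. Of the exon bases of Kctd12, 62.8% overlap Gm26778 on the opposite strand, which was listed at 0 counts in all 6 libraries. Of the exon bases of Kctd16, 10.4% overlap the antisense gene AC098707.1, and the use of strand in the counting is not stated.

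Kctd12b and Kctd12 carry similar names, so their sequences are shown to let a reader see how far reads of each can be told apart. Over the aligned coding bases Kctd12b was 62.4% identical to Kctd12, 62.9% to Kctd8 and 65.1% to Kctd16. The most alike ungapped coding stretch of 90 bases lies at chrX:153688963-153689052 in Kctd12b and chr14:102981613-102981702 in Kctd12, both on the minus strand of GRCm38. The reference sequences are printed 5′ to 3′ with the 19 bases that differ in capitals.
Kctd12b: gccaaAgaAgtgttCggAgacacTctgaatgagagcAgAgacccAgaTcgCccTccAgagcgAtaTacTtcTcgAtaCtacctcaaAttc
Kctd12: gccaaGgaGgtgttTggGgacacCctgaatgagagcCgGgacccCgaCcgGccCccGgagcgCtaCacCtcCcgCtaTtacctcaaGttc
The other 71 bases are identical, with no identical run longer than 12 bases. Over the whole transcripts the longest exact run that Kctd12b and Kctd12 share is 48 bases. The posterior SD that RSEM gives for reads it had to divide between genes was 0 counts for Kctd12b in every library.

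Kctd12b had 8 and 1 counts in the control libraries, 656 and 1760 with Sox11, and 1201 and 470 with Sox11K91A. As TMM-scaled CPM, counts relative to the sequenced total of each library, these were 0.286 and 0.0259 in control, 23.9 and 53.1 with Sox11, and 37.3 and 16.1 with Sox11K91A. The 4 Sox11 and Sox11K91A libraries were far above both control libraries, and the libraries of the 2 Sox11 viruses overlapped each other. Pooled within groups, control had 0.135 CPM with an exact 95% interval of 0.0619 to 0.257. The pooled level with Sox11 was 294 times this value (exact 95% interval 155 to 645), and that with Sox11K91A was 201 times (106 to 441). These intervals cover counting error only and leave out the spread between libraries. They are no test, because this contrast chose the set, and they are wide because control holds 9 counts in all. Of these 9 counts, 8 came from control replicate 1, so the ratio depends on the control library. Against control replicate 1 alone it was 139 with Sox11 (70.5 to 323) and 95.1 with Sox11K91A (48.1 to 221). Against the 1 count of control replicate 2 it was 1540 (275 to 60700) and 1050 (188 to 41500).

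Kctd12b lay at the bottom of the tested genes in control and in their middle range with the viruses. In TPM, transcript levels that also account for gene length, it had 0.12 and 0.01 in control, 10.35 and 23.31 with Sox11, and 15.85 and 6.8 with Sox11K91A. In control 1.5% and 0.7% of the tested genes had a lower TPM. With Sox11 41.3% and 57.0% did, and with Sox11K91A 49.4% and 35.3%. With bulk RNA, more cells that express Kctd12b and more RNA per cell cannot be told apart.

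**Figure D1:**
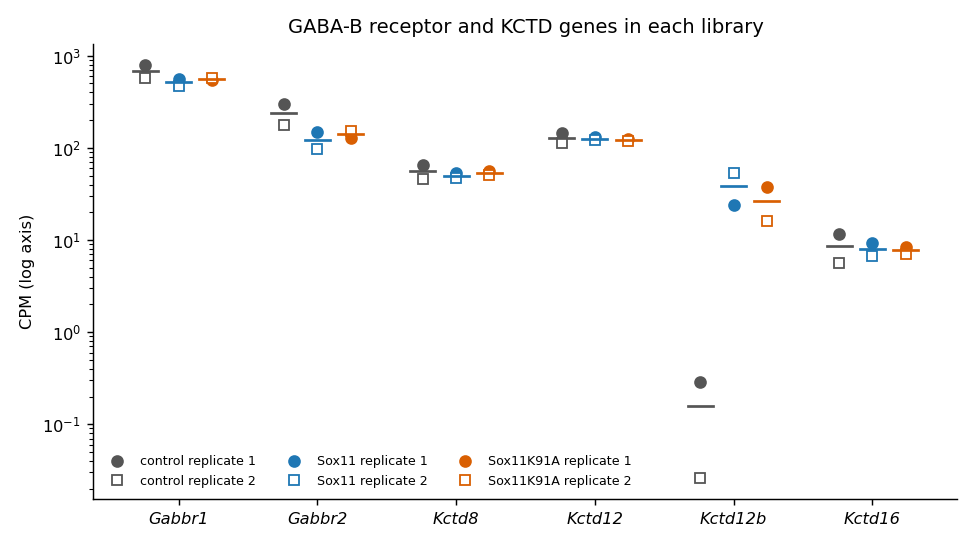
CPM of the 6 genes (log axis) in each of the 6 libraries, with filled circles for replicate 1, open squares for replicate 2 and a bar at the mean of each group. Kctd12b lies at 0.286 and 0.0259 CPM in control and between 16.1 and 53.1 in the 4 Sox11 and Sox11K91A libraries, and no other gene shows such a gap.

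Sox11 itself, measured from the virus and the cell's own gene together, had 234 and 332 CPM in control, 9178 and 14590 with Sox11, and 11970 and 7026 with Sox11K91A. It was higher with both viruses by limma-voom, with log2 fold changes of 5.38 ± 0.33 (SE, adjusted p = 0.00753) and 5.04 ± 0.33 (SE, adjusted p = 0.00919). The counts do not separate the wild-type from the mutant transcript. From lowest to highest, Sox11K91A replicate 2, Sox11 replicate 1, Sox11K91A replicate 1 and Sox11 replicate 2 followed each other in the same order for Sox11 and for Kctd12b. This order was found in 12.45% of all genes tested and in 51.41% of the 885 genes called higher with both viruses. Per 1000 Sox11 counts there were 2.6 and 3.64 Kctd12b counts with Sox11, 3.11 and 2.29 with Sox11K91A, and 1.22 and 0.0782 in control, all on the CPM scale. The plot of Kctd12b against Sox11 by library shows both the gap to control and this order.

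**Figure D2:**
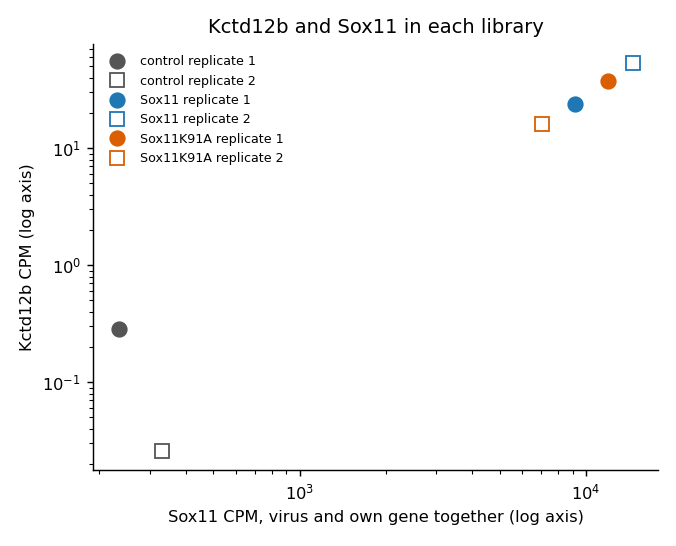
Kctd12b CPM against Sox11 CPM in the 6 libraries, both on log axes, with 1 point per library. The 4 Sox11 and Sox11K91A libraries lie in 1 order on both axes, from 7026 Sox11 and 16.1 Kctd12b CPM to 14590 and 53.1, and the control libraries lie apart at 234 and 332 Sox11 CPM.

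Genes were ordered by how close their profile over the 6 libraries came to that of Kctd12b, as the root mean square difference of mean-centred log2 CPM after adding 0.5 CPM. The nearest were Sox11 (0.40), Vcan (0.44) and Vwa2 (0.47). The added 0.5 CPM is larger than Kctd12b itself in both control libraries, and the order depends on it. With 0.1 CPM added, an alternative chosen after seeing the data, Vwa2 had rank 2 (0.51), Vcan rank 4 (0.70) and Sox11 rank 7 (1.09), while Vxn had rank 1 (0.50) and Usp18 rank 3 (0.62). Vcan encodes versican, a chondroitin sulfate proteoglycan of the extracellular matrix, and had 1.54 and 2.31 CPM in control, 130 and 295 with Sox11, and 217 and 110 with Sox11K91A. Vwa2, a gene with von Willebrand factor A domains, had 0.215 and 0.0519 CPM in control, 12.6 and 23.4 with Sox11, and 16.7 and 10.5 with Sox11K91A. These likenesses are descriptions over 6 libraries that share their 2 controls. Most of the Kctd12b profile is its gap between control and the viruses, the value that chose the set. Genes with a large rise, among them the delivered Sox11, therefore rank near it by construction, and the ranks lend it no support.

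Kctd12b did not differ between the viruses beyond the spread between libraries. Its mean was 38.5 ± 20.7 CPM with Sox11 and 26.7 ± 15.0 with Sox11K91A (SD, n = 2 each), a log2 fold change of -0.54 ± 0.49 (SE) with an adjusted p of 1 by limma-voom. The 95% interval of the difference ran from -1.70 to 0.61, so a change of either sign is left inside it. The sign changed when Sox11 replicate 2 was left out (log2 fold change of 0.05) and when Sox11K91A replicate 2 was left out (0.04).

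Control replicate 2 and Sox11 replicate 2 were separated from the rest by the second principal component, with scores of -36.2 and -22.3 against 8.9 to 24.6. They also had the lowest CPM of Xist, the RNA that silences 1 X chromosome in females, at 95.9 and 253.8 against 400.4 to 526.0. Kctd12b is on the X chromosome. With Sox11 the library of lower Xist had the higher Kctd12b, with 53.1 against 23.9 CPM, and in control it had the lower one. Without these 2 libraries Kctd12b had 0.286 CPM in control, 23.9 with Sox11, and 37.3 and 16.1 with Sox11K91A.

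Gabbr1, the subunit that binds GABA, was the most abundant of the 6 genes. It had 799.5 and 576.3 CPM in control, 561.3 and 469.1 with Sox11, and 539.7 and 574.7 with Sox11K91A. Every Sox11 or Sox11K91A library was below both control libraries, with 574.7 against 576.3 CPM for the nearest pair, while the 2 control libraries were much further apart. The log2 fold change was -0.41 ± 0.20 (SE, adjusted p = 0.178, limma-voom) with Sox11, with a 95% interval of -0.87 to 0.06. With Sox11K91A it was -0.29 ± 0.20 (SE, adjusted p = 0.369), with an interval of -0.75 to 0.18. Neither passed the threshold of a false discovery rate under 0.05 with a fold change above 1.2, which is the study's own. Without the 2 libraries that stand apart, the value with Sox11K91A was -0.52 (adjusted p = 0.03), past the threshold, and that with Sox11 was -0.51 (adjusted p = 0.0648). That fit, limma-voom with 1 library each in control and Sox11, takes its spread from the 2 Sox11K91A libraries and assumes that the others vary alike.

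Gabbr2, the subunit that couples to G proteins and binds the KCTD proteins, had the most negative log2 fold change of the 5 tested genes with both viruses, but it did not pass the threshold. It had 297.5 and 178.3 CPM in control, 147.6 and 96.8 with Sox11, and 127.0 and 152.7 with Sox11K91A. All 4 Sox11 and Sox11K91A libraries were below both control libraries; the 2 control libraries were also the furthest apart of any group. The fitted level with Sox11 was 51.8% of that in control, a log2 fold change of -0.95 ± 0.29 (SE, adjusted p = 0.0615, limma-voom), with a 95% interval of -1.65 to -0.25. With Sox11K91A the log2 fold change was -0.73 ± 0.29 (SE, adjusted p = 0.149), with an interval of -1.43 to -0.03. The call turned with the library, the tool and the terms of the fit. Gabbr2 passed with Sox11 in DESeq2 (adjusted p = 0.0126), when control replicate 2 was left out (0.0462) and when Sox11 replicate 1 was left out (0.0476), and it had an adjusted p of 0.316 when Sox11 replicate 2 was left out. It also passed in limma-voom with a block for the 2 libraries that stand apart, with adjusted p = 0.00917 for Sox11 and 0.0136 for Sox11K91A. Without both libraries that stand apart, the log2 fold changes were -1.01 with Sox11 (adjusted p = 0.0396) and -1.10 with Sox11K91A (adjusted p = 0.0148), from the same reduced fit.

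Kctd8 and Kctd12, the most abundant of the KCTD auxiliary subunits, were at like levels in all groups. Kctd8 had 65.1 and 46.1 CPM in control, 53.0 and 46.9 with Sox11, and 55.6 and 50.7 with Sox11K91A. Kctd12, whose protein makes the receptor's response desensitize, had 146.1 and 111.8 CPM in control, 129.5 and 121.6 with Sox11, and 125.3 and 118.8 with Sox11K91A. The Sox11 and Sox11K91A libraries of both genes lay between the 2 control libraries. The log2 fold changes of Kctd8 were -0.13 ± 0.19 with Sox11 and -0.04 ± 0.19 with Sox11K91A (SE), and the 95% intervals, -0.59 to 0.33 and -0.50 to 0.42, leave room for changes of either sign. Those of Kctd12 were -0.03 ± 0.17 and -0.07 ± 0.16 (SE), with intervals of -0.42 to 0.36 and -0.46 to 0.32.

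Kctd16, the least abundant of the 6 genes by CPM apart from Kctd12b in control, had 11.7 and 5.66 CPM in control, 9.17 and 6.73 with Sox11, and 8.35 and 7.03 with Sox11K91A. The 2 control libraries enclosed the other 4. The log2 fold changes were -0.01 ± 0.37 and -0.03 ± 0.38 (SE), and the 95% intervals of -0.89 to 0.88 and -0.91 to 0.86 are the widest of the 5 genes against control.

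**Figure D3:**
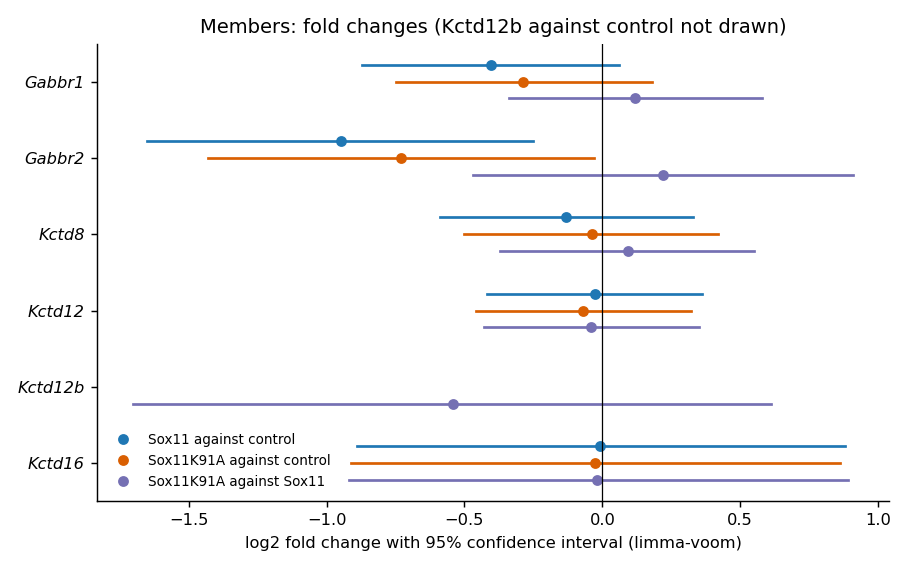
Log2 fold changes (points) with 95% confidence intervals (lines) from limma-voom over 6 libraries, for 3 comparisons. Only the intervals of Gabbr2 against control lie wholly below 0, at -1.65 to -0.25 with Sox11 and -1.43 to -0.03 with Sox11K91A, before adjustment over all genes. Kctd12b against control is not drawn.

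Of the 5 genes that did not choose the set, 0 were called with Sox11 and 0 with Sox11K91A by limma-voom. Among all genes tested, 9.96% were called higher and 10.2% lower with Sox11, and 5.81% were called higher and 4.81% lower with Sox11K91A, so a count of 0 of 5 shows nothing particular to these genes. At an unadjusted p under 0.05 Gabbr2 alone of the 5 passed, in both comparisons. Of all 15747 genes tested, 5985 passed this unadjusted threshold with Sox11 and 4817 with Sox11K91A. With edgeR the counts were also 0 and 0, and with DESeq2 they were 1, Gabbr2 with Sox11, and 0. Over all genes DESeq2 called 4332 with Sox11 and 3144 with Sox11K91A. Between Sox11K91A and Sox11, 0 of the 6 genes were called, and in this comparison limma-voom called 0% of all genes, with 108 genes at an unadjusted p under 0.05, and DESeq2 called 2. The log2 differences of Gabbr1 (0.12, 95% interval -0.34 to 0.58) and Gabbr2 (0.22, -0.47 to 0.91) between the viruses were the largest of the 5 after that of Kctd12b.

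The order of the 6 genes per length was compared by TPM. In control Gabbr1 led with 406.3 and 284.4 TPM, followed by Gabbr2 with 106.5 and 57.9. Kctd12 (49.2 and 36.6 TPM) and Kctd8 (48.7 and 31.2) overlapped each other, and Kctd16 (20.4 and 9.09) lay below both. With Sox11 Gabbr2, at 54.3 and 35.4 TPM, overlapped both Kctd12 (44.2 and 42.0) and Kctd8 (39.8 and 36.0). With Sox11K91A Gabbr2, at 45.0 and 54.7 TPM, stayed above Kctd12 (42.6 and 40.2), which overlapped Kctd8 (40.8 and 37.1). Kctd12b overlapped Kctd16 with both viruses, since Kctd16 had 16.3 and 12.1 TPM with Sox11 and 14.6 and 12.2 with Sox11K91A. RSEM used a length of 1349 bases for Kctd16 in every library, while its annotated transcript with the longest coding sequence has 2767. By CPM Kctd12b (16.1 to 53.1) lay above Kctd16 (6.73 to 9.17) with the viruses. The order by TPM and the KCTD ratios and shares below depend on that length.

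Ratios within a library show the make-up of the set without reference to depth. The TPM of Gabbr2 per TPM of Gabbr1 was 0.262 and 0.204 in control, 0.196 and 0.151 with Sox11, and 0.169 and 0.199 with Sox11K91A. The 4 Sox11 and Sox11K91A libraries were all lower than control, with 0.199 against 0.204 for the nearest pair. Transcripts of Kctd8, Kctd12 and Kctd16 together, per Gabbr2 transcript, came to 1.11 and 1.33 in control, 1.85 and 2.55 with Sox11, and 2.18 and 1.63 with Sox11K91A. This ratio, which leaves out Kctd12b, was higher in every Sox11 or Sox11K91A library than in either control library, and the 2 viruses overlapped. With both viruses the TPM of Kctd8, of Kctd12 and of Kctd16 lay between those of the 2 control libraries. The higher ratio thus largely restates the lower Gabbr2, which did not pass the threshold in the main fit. These ratios are descriptions and were not tested.

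Kctd12b made up 0.101% and 0.013% of the summed TPM of the 4 KCTD genes in control, 9.36% and 20.6% with Sox11, and 13.9% and 7.07% with Sox11K91A. With it counted, the KCTD transcripts per Gabbr2 transcript were 2.04 and 3.21 with Sox11 and 2.53 and 1.76 with Sox11K91A, and the control values stayed at 1.11 and 1.33. Kctd12 was the largest share in every library, from 37.0% to 47.6%, and Kctd8 was next, from 31.7% to 41.1%.

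**Figure D4:**
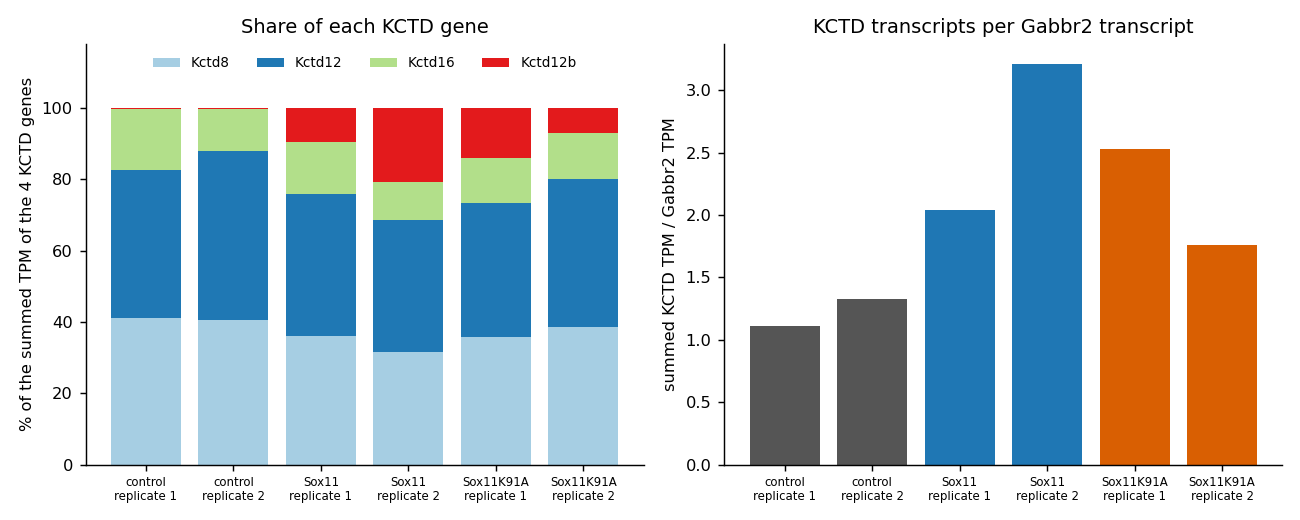
Left, the share of each KCTD gene in their summed TPM (%) in each library. Right, the summed TPM of the 4 KCTD genes divided by the TPM of Gabbr2. Kctd12b takes between 7.07% and 20.6% in the Sox11 and Sox11K91A libraries and at most 0.101% in control, and the ratio on the right runs from 1.76 to 3.21 with the viruses against 1.11 and 1.33.

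The pathway around the receptor was described with lists of genes by role, each set beside a median log2 fold change over all genes tested of 0.009 with Sox11 and 0.017 with Sox11K91A. Over all genes tested, 9.96% were called higher and 10.2% lower with Sox11, and 5.81% and 4.81% with Sox11K91A, and the counts below are to be read against these shares. Among 19 G protein subunit genes tested, 1 rose and 5 fell with Sox11 (median log2 fold change -0.52), and 1 rose and 3 fell with Sox11K91A (median -0.42). Gng2, a γ subunit gene, rose from 240 ± 49.5 TPM in control to 698 ± 70.7 with Sox11 and 643 ± 150 with Sox11K91A (SD, n = 2), log2 fold changes of 1.78 (adjusted p = 0.0123, limma-voom) and 1.49 (adjusted p = 0.0223). Gnb4, a β subunit gene, fell from 77.7 ± 15.1 TPM to 37.6 ± 6.15 and 39.9 ± 6.13, with log2 fold changes of -1.16 and -1.08. Gnaz, which encodes the pertussis toxin-insensitive inhibitory α subunit, also fell in both comparisons, by 0.85 and 0.83 on the log2 scale. Gnb5, a β subunit that pairs with RGS proteins of the R7 type, fell with Sox11 by 0.96 on the log2 scale, and its value with Sox11K91A was -0.67 (adjusted p = 0.0911). Gng12 fell with Sox11K91A by 0.78 on the log2 scale and had -0.52 with Sox11 (adjusted p = 0.0787). Gnb1, with the highest mean TPM of the list over the 6 libraries, had 706, 814 and 789 TPM in the 3 groups and was not called.

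Of 8 adenylyl cyclase genes tested, which make the cyclic AMP that the receptor lowers, 0 rose and 2 fell with Sox11 (10.2% of all genes fell), and 1 fell with Sox11K91A (4.81% of all genes). Adcy2 went from 28.6 ± 3.82 TPM to 15.5 ± 1.06 and 17.1 ± 1.34 (log2 fold changes of -0.98 and -0.79), and Adcy7 from 4.78 TPM to 1.79 with Sox11 (log2 fold change -1.67). The value of Adcy7 with Sox11K91A was -1.21 (adjusted p = 0.0616). Adcy1, with the highest mean TPM over the 6 libraries, had 91.8 ± 51.7 TPM in control and was not called. The medians of the list were -0.83 and -0.47.

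Among 7 channel genes, 2 fell with Sox11 (10.2% of all genes fell) and 1 with Sox11K91A (4.81% of all genes), and none rose. Kcnj9, a Kir3 channel subunit that GABA-B receptors open through Gβγ, fell from 6.15 ± 2.77 TPM to 1.48 ± 1.07 with Sox11 (log2 fold change -2.26, adjusted p = 0.0302), and its value with Sox11K91A was -1.41 (adjusted p = 0.0929). The other Kir3 genes were not called, and Kcnj3 had 1.54 TPM, Kcnj5 0.29 TPM and Kcnj6 6.85 TPM in control. Hcn2, a hyperpolarization-activated cation channel gated by cyclic AMP, fell from 73.5 ± 8.16 TPM to 27.6 ± 0.304 and 27.3 ± 4.86, log2 fold changes of -1.50 and -1.49. Cacna1a, the pore of P/Q-type calcium channels and the gene of highest mean TPM in the list, was not called (log2 fold changes of -0.58 and -0.33).

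Of 11 genes of the RGS and GRK families, which end G protein signals or phosphorylate receptors, 1 rose and 3 fell with Sox11, and 0 rose and 2 fell with Sox11K91A. Rgs11, of the R7 type, fell from 47.8 TPM to 14.9 and 15.1, log2 fold changes of -2.19 and -1.79. Grk2, a receptor kinase, fell by 0.78 and 0.64 on the log2 scale. Rgs7bp, an anchor of R7 proteins, fell with Sox11 by 0.91 on the log2 scale and had -0.72 (adjusted p = 0.0776) with Sox11K91A. Grk5 rose from 7.18 ± 3.73 to 15.1 ± 0.191 TPM with Sox11 (log2 fold change 1.13) and had 1.16 with Sox11K91A (adjusted p = 0.0502). Rgs4, the gene of highest mean TPM in the list, was not called (0.06 and 0.08).

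Among 11 genes for proteins that bind or carry the receptor, 5 fell with Sox11 and 2 with Sox11K91A. Ajap1 and Pianp encode membrane proteins that bind the sushi domains of the GABBR1a isoform. Ajap1 had 47.0 ± 2.43 TPM in control and 11.6 ± 10.3 with Sox11 (log2 fold change -2.59, adjusted p = 0.0202), and -1.60 with Sox11K91A (adjusted p = 0.0625). Pianp fell from 63.8 ± 12.8 TPM to 27.8 ± 7.23 and 28.8 ± 7.1, log2 fold changes of -1.35 and -1.21. Jakmip1, which links GABBR1 to microtubules, and Nsf, an ATPase of membrane fusion that binds the receptor, fell with Sox11 by 0.74 and 0.80 on the log2 scale. Praf2, which holds GABBR1 in the endoplasmic reticulum, fell with Sox11K91A by 0.58 on the log2 scale and with Sox11 by 0.65. App, whose protein also binds GABBR1a, had the highest mean TPM of the list, with 946 ± 319 in control, and was not called (0.11 and 0.12).

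The 8 genes of GABA synthesis and transport had 0 calls with either virus by limma-voom or edgeR, and 2 with DESeq2 in each comparison. Over all genes DESeq2 called 4332 with Sox11 and 3144 with Sox11K91A. At an unadjusted p under 0.05 limma-voom had 3 of the list with Sox11 and 2 with Sox11K91A. Of all 15747 genes tested, 5985 and 4817 passed the same unadjusted threshold. The medians of the list were -0.19 and 0.05.

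The wider KCTD family, which outside the receptor's 4 subunits mostly includes substrate adaptors of cullin-3 ubiquitin ligases, had medians above that of all genes. Of 17 tested genes, 4 rose and 2 fell with Sox11 (median log2 fold change 0.13), and 2 rose and 1 fell with Sox11K91A (median 0.22). Of all genes, 9.96% rose and 10.2% fell with Sox11 and 5.81% rose and 4.81% fell with Sox11K91A, so the counts of fallen genes are near that background. Kctd13, a cullin-3 adaptor with the highest mean TPM over the 6 libraries, rose from 172 ± 10.2 TPM to 310 ± 23.3 and 295 ± 30.8, log2 fold changes of 0.75 and 0.72. Kctd10, its relative, rose from 39.3 ± 3.32 TPM to 78.7 ± 2.33 and 78.7 ± 7.01 (0.89 and 0.93). Kctd4 went from 0.46 to 2.67 TPM with Sox11 (log2 fold change 2.36) and Kctd18 from 10.3 to 21.9 TPM (0.96). Kctd9 fell in both comparisons, by 0.87 and 0.98 on the log2 scale.

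**Figure D5:**
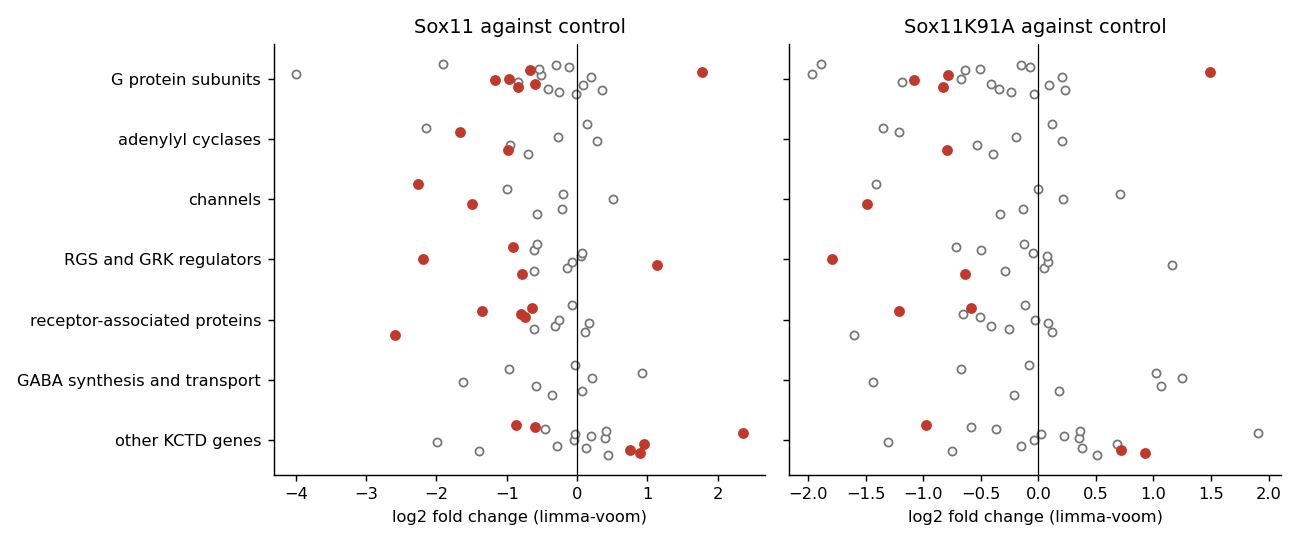
Log2 fold change of each tested gene in the 7 lists, with filled red points for genes past the threshold and open points for the others, with Sox11 (left) and Sox11K91A (right), both against the same 2 control libraries. The medians of G protein subunits (-0.52 and -0.42) and adenylyl cyclases (-0.83 and -0.47) lie below 0 and those of other KCTD genes (0.13 and 0.22) above it.

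The list counts rest on single libraries. Without Sox11 replicate 2, limma-voom called 0 genes with Sox11 in each of the 7 lists, as it did over all genes. Without control replicate 2 or without Sox11K91A replicate 1 it called 0 with Sox11K91A, again in each list and over all genes. Without both libraries that stand apart, control and Sox11 had 1 library each, and the spread came from the 2 Sox11K91A libraries alone. The calls per list from that fit are therefore not given.

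The cultures expressed RGC markers, with 12 of 12 tested and a summed level between 9600 and 10500 TPM in control, 5690 and 8290 with Sox11, and 7250 and 8520 with Sox11K91A. The sum was below control in the other 4 libraries, as Gabbr1 and Gabbr2 were, and the part of this in their values was not tested. Much of the difference was Nefl, a neurofilament gene with 4010, 1990 and 2290 TPM in the 3 groups, and Thy1, the antigen of the immunopanning, with 881, 202 and 301 TPM. Of the 12 markers, 5 were called lower with Sox11 (10.2% of all genes) and 2 with Sox11K91A (4.81% of all genes). Those with Sox11 were Thy1, Nefl, Rbpms2, Slc17a6 and Nrn1. Those with Sox11K91A were Slc17a6 (276, 164 and 158 TPM in the 3 groups) and Nrn1 (207, 48.6 and 52.7 TPM). Thy1 and Nefl were not called with Sox11K91A (adjusted p = 0.187 and 0.118, limma-voom). Tubb3 (1260, 1670 and 1780 TPM), Isl1 (281, 284 and 294 TPM) and Pou4f3 (52.6, 68.7 and 72.2 TPM) were not lower. Amacrine markers, 7 of 8 tested and with Chat under 1 TPM in all libraries, summed to between 48.4 and 148 TPM in control, 27.6 and 64.8 with Sox11, and 59.0 and 61.6 with Sox11K91A. Müller glia and astrocyte markers, 6 of 8 tested, summed to between 74.5 and 84.3 TPM in control, 218 and 252 with Sox11, and 205 and 243 with Sox11K91A. Nearly all of this sum was Glul, glutamine synthetase, which rose with both viruses (74.6, 232 and 220 TPM in the 3 groups), as Kctd12b was higher. The list's median log2 fold changes were -0.39 and -0.35, and Rlbp1 (2.31, 0.445 and 0.335 TPM), Slc1a3 (0.84, 0.28 and 0.285 TPM) and Sox9 (0.705, 0.225 and 0.08 TPM) had lower values with the viruses. Aldh1l1 (0.635, 1.2 and 2.25 TPM) had higher values, and Gja1 (0.295, 0.895 and 0.46 TPM) had higher means with overlapping libraries. Gfap was listed at 0 and Aqp4 was under 1 TPM in all libraries. Endothelial markers, 4 of 7 tested, summed to between 1.68 and 2.18 TPM in control and 3.73 and 5.07 with the viruses, with Cdh5, Cldn5, Tek, Flt1 and Tie1 under 1 TPM. Of the 4 tested, 2 were called higher and 0 lower with Sox11K91A, where 5.81% of all genes were called higher. They were Pecam1 (0.29, 1.04 and 1.25 TPM) and Tek (0.055, 0.27 and 0.53 TPM), and 0 of the 4 were called with Sox11. Summed bipolar markers (3 of 6 tested) were 21.4 to 30.2 TPM in control and 15.2 to 16.7 with the viruses. Nearly all of this sum was Prkca (24.2, 13.6 and 14.0 TPM in the 3 groups). Vsx1, Grm6, Cabp5 and Pcp2 were under 1 TPM in all libraries. Photoreceptor markers (4 of 8) summed to 3.24 to 3.88 TPM in control and 1.19 to 2.43 with the viruses. Dividing cell markers (4 of 6) summed to 4.16 to 5.46 and 2.38 to 3.16 TPM. Microglial markers (2 of 8 tested, Tyrobp listed at 0) stayed at or below 5.11 TPM in all libraries and those of pericytes and fibroblasts (6 of 6) at or below 11.3 TPM. Whether these cells contribute to Kctd12b or the other members was not tested.

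Sox proteins bind DNA at sites of the type ACAAAG or ACAATG, so the 250 bases before the start of Gabbr1, Gabbr2, Kctd8 and Kctd12 were searched for both motifs on both strands in RefSeq promoters of GRCm38.p6. Kctd12b and Kctd16 were not searched. ACAAAG was found in 16.5% of all 32851 windows and ACAATG in 10.7%. Gabbr1 held 1 ACAAAG and Kctd8 held 2, Gabbr2 and Kctd12 held none, and none of the 4 windows held ACAATG. The match of Gabbr1 and the first match of Kctd8 are printed 5′ to 3′ along each gene's strand, with the motif, which reads as its complement there, in capitals.
Gabbr1, chr17:37045716-37045738: cttgtCTTTGTgccagctcctct
Kctd8, chr5:69341870-69341899: tttctctggattCTTTGTgttgtcctcttc
These matches are descriptions of the letters. Neither gene was called with either virus.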

How the data were processed

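RNA-seq was done on 6 libraries of cultured mouse RGCs. The authors aligned reads to mm10 with STAR and counted genes with RSEM on the DNAnexus platform, and versions, annotation and use of strand are not given in the sources used here. The deposited expected counts per gene are not normalized, and 80.9% to 82.8% of nonzero entries were whole numbers. The authors' tables also hold TPM values, scaled by RSEM to 1 total per library, the mean transcript length in bases and the posterior SD of the count. The expected counts summed to between 27521981 and 37061718 per library. Of 69690 entries, 43346 were Ensembl genes, 26248 numbered entries with 1 count in all and 96 spike-ins with 0 counts. Only Ensembl genes were used, with symbols and positions from GENCODE M21.

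Expected counts were rounded, filtered with filterByExpr, scaled by TMM (factors 0.985 to 1.04) with edgeR 4.0.16 and tested with limma-voom (limma 3.58.1, R 4.3.3), with all 6 libraries in 1 fit, Benjamini-Hochberg adjustment over 15747 genes, FDR under 0.05 and fold change above 1.2, as in the study's methods. CPM are TMM-scaled, and intervals are 95%. The script was tested on simulated data. Alternatives included edgeR, DESeq2 1.42.0, TPM on a log2 scale, other filters and scalings, replicate blocks and leaving out each library. Replicate libraries differed by more than counting error (chi-square per gene of 19.8 to 92.4), and the source of that spread was not tested.

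The members and lists were chosen with earlier results of these data known. The text names all 6 members, Sox11, the 3 genes nearest to Kctd12b in profile, and of each list all genes called when there were 4 or fewer, otherwise the 4 with the largest log2 fold change among called genes whose libraries do not overlap, and the most abundant gene. A named result that falls under this rule is not reported here. The other Kir3 genes were named after their values were seen. Coding sequences were taken from GENCODE M21 transcripts and compared with BLAST+ 2.17.0, with promoters from RefSeq. Of the 6 members, 4 promoters were searched.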

Additional observations from a re-analysis of the deposited data

How the results depend on the processing

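With 2 libraries per group, the spread is estimated on few degrees of freedom, and single libraries decided many calls. The 3171 genes called with Sox11 became 979 with sample quality weights, 2107 with limma-trend on log2(TPM + 0.1), 1637 with only the 2 groups compared and 1630 without both libraries that stand apart, and leaving out 1 library moved them to between 0 and 3742. The 1672 called with Sox11K91A became 3144 with DESeq2, 936 and 896 with limma-trend on log2(TPM + 1) and log2(TPM + 0.1), and 3871 without both libraries, and leaving out 1 library moved them to between 0 and 2529. Between the viruses DESeq2 called 2 genes against 0. Of the 5 tested members, 1 was called with Sox11 with DESeq2, when control replicate 2 or Sox11 replicate 1 was left out (1 each) and without both libraries, and 2 were called with Sox11K91A without both libraries. Gabbr2 was below control under each of 21 alternatives in both comparisons, and past the threshold under 7 with Sox11 (adjusted p from 0.00835 to 0.316, limma-voom, edgeR or DESeq2) and 3 with Sox11K91A (0.0136 to 0.592). Gabbr1 was also below control under each of 21.

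The replicate numbers do not pair the libraries, since the deviations of same-numbered libraries correlated at 0.296, -0.054 and -0.421. With the replicate block 2679 genes and 1 member, Gabbr2 (adjusted p = 0.0457, limma-voom), were called with Sox11. A crossed replicate block, with the numbers of Sox11K91A exchanged, called 4076 and 2753 genes and 1 member in each comparison against control. A block for the 2 libraries that stand apart called 4562 and 2894 genes and 1 member in each. These 2 blocks and the fit without both libraries were chosen after seeing the data.

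Values near 0 changed sign. Against Sox11, Sox11K91A values became -0.064 for Gabbr1, -0.116 for Gabbr2, -0.079 for Kctd8 and 0.009 for Kctd12b with the block for the 2 libraries that stand apart, and -0.014, -0.087 and 0.055 for Gabbr1, Gabbr2 and Kctd12b without both. With limma-trend at pseudocounts of 1 and 0.1, the Sox11 values became 0.020 and 0.021 for Kctd12 and 0.036 and 0.044 for Kctd16. Leaving out each library in turn, Sox11 values ran from -0.392 to 0.111 for Kctd8, -0.224 to 0.166 for Kctd12 and -0.595 to 0.456 for Kctd16. Sox11K91A values against control ran from -0.300 to 0.206, -0.267 to 0.126 and -0.612 to 0.443 for the same genes. Those against Sox11 ran from -0.011 to 0.248 for Gabbr1, -0.083 to 0.525 for Gabbr2, -0.087 to 0.005 for Kctd12, -1.16 to 0.051 for Kctd12b and -0.256 to 0.191 for Kctd16. Of 375 values of members, 28 changed sign and 11 changed call, and the cause was not tested. Of 322 list counts, 130 moved by over 1.5 times. A filter of 10 counts in every library removed Kctd12b and gave no value for it. Its fitted log2 fold change against control was 3.97 and 6.65 with Sox11, and 3.43 and 6.08 with Sox11K91A, by limma-trend with pseudocounts of 1 and 0.1. It was 9.87 and 9.32 without control replicate 1, and 6.90 and 6.35 without control replicate 2.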

Other observations

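RSEM gives for each gene a mean transcript length weighted by its estimate of isoform shares. For Gabbr1, which has 11 annotated transcripts, among them the long and short forms that differ at the start of the protein, this length was 4084.4 and 3858.1 bases in control, 4251.0 and 4261.8 with Sox11, and 4179.5 and 4265.1 with Sox11K91A. The 4 Sox11 and Sox11K91A libraries were above both control libraries. The lengths are estimates without a count per isoform, and the difference was not tested.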
